A study of Homo sapiens with 6 samples.

Results

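The 10 genes described here are the human Argonautes AGO1, AGO2, AGO3 and AGO4, the TNRC6 proteins TNRC6A, TNRC6B and TNRC6C, and the microRNA processing genes DICER1, DROSHA and DGCR8. They were taken by symbol from a count table of 26364 genes, in which all 10 had a row, and all 10 passed the filter on low counts that left 8070 genes for testing. The libraries come from the human cell line HEK293T, which derives from embryonic kidney, all grown with 200 nM okadaic acid for 3 h, an inhibitor of the phosphatases that act on UPF1. The p-UPF1 IP group holds 3 libraries of RNA co-immunoprecipitated with an antibody against phosphorylated UPF1 (replicates 3, 6 and 9). The pre-IP group holds 3 libraries (replicates 1, 4 and 7), which carry a rabbit IgG antibody label, so the labels do not settle if this control is input RNA or the product of a mock IP. Both groups received okadaic acid, and there are no untreated cells. The labels name no separate cultures, so the spread behind each p-value is that of these libraries and could be technical only.

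MicroRNAs are made in steps. In the nucleus the RNase III enzyme DROSHA and its double-stranded RNA-binding partner DGCR8, together called Microprocessor, cut a hairpin out of the primary transcript, and in the cytoplasm the RNase III enzyme DICER1 cuts the hairpin to a short duplex. An Argonaute protein keeps a single strand of that duplex as a guide, and TNRC6 proteins link the Argonaute to the deadenylases that shorten the poly(A) tail of the target mRNA. UPF1, the helicase of nonsense-mediated mRNA decay, is phosphorylated on mRNAs that are being degraded, so the comparison asks how far the mRNAs of this machinery were recovered with phosphorylated UPF1.

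DGCR8 mRNA is itself a substrate of Microprocessor, since it carries microRNA hairpins in its own sequence. The mature sequences are shown because the table has separate rows for these microRNA genes. MIR3618 lies in the 5' UTR of the DGCR8 transcript used here and MIR1306 in its coding sequence. Both rows had 0 counts in all 6 libraries, while DGCR8 had a sum of 355 counts in p-UPF1 IP, against 70 in pre-IP. The sequences are from RefSeq, GRCh38.p14, 5' to 3', and the capitals mark the seed, bases 2 to 8.
hsa-miR-3618: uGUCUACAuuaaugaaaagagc
hsa-miR-1306-5p: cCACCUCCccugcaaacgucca
hsa-miR-1306-3p: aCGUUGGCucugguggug
The 3 seeds differ from each other. How the counting treated reads that lie in a microRNA gene and in DGCR8 is not given in the sources used here, so a row at 0 does not show that the hairpins were not sequenced.

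Paralogs can share reads, and inserts in these libraries start just above 20 bp. In the GENCODE release 29 transcripts, 0.212% of the 21-base words of AGO1 occurred in another of the 10 genes, 0.0412% of those of AGO2, 0.559% of AGO3 and 0.662% of AGO4. The TNRC6 values were 0.0713% for TNRC6A, 0.195% for TNRC6B and 0.0617% for TNRC6C, and DICER1, DROSHA and DGCR8 had 0. Against all other annotated genes the share was 12.5% for AGO3 and between 0.0378% (DROSHA) and 3.35% (AGO4) for the other 9, so the counts of AGO3 are the least certain. The stretches below are coding examples in which a short read could not be assigned to a single gene of the pair. The longest run shared by any pair, 43 bases in AGO3 and AGO4, does not lie wholly in coding sequence and is not printed. The capitals mark the run that is identical in the named pair, with 10 coding bases on each side in lower case, 5' to 3' on the mRNA strand. The Argonaute pair shares 32 bases and the TNRC6 pair 24 bases.
AGO1: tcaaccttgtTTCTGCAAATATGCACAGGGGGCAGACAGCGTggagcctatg
AGO3: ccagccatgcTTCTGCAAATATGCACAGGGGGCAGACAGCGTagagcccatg
TNRC6A: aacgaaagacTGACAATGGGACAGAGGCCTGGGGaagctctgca
TNRC6C: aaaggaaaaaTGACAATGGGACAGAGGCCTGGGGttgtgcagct
Outside the capitals the paired lines differ at several bases.

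Library totals ran from 905926 to 2057647 counts in p-UPF1 IP and from 600244 to 1179369 in pre-IP. Protein-coding symbols took 55.0% to 73.3% of the counts in p-UPF1 IP and 23.7% to 35.3% in pre-IP, so a share of all counts rose for most mRNAs. The median log2 fold change of tested genes was 1.63 when libraries were scaled by their totals alone and 0.10 with TMM scaling, which takes most genes as not changed. Log2 fold changes below are p-UPF1 IP over pre-IP with TMM, and so are relative to the bulk of genes. All 8 HEK293 markers, among them INA, NEFL and VIM, had counts (a sum of 4882 in p-UPF1 IP and of 581 in pre-IP). VIM alone gave 3757 and 419 of these counts. Of 14 markers of blood, liver, fibroblast, muscle and epidermis, 5 had any (29 in p-UPF1 IP and 7 in pre-IP), a share of 0.00038% to 0.000883% in the p-UPF1 IP libraries and of 0 to 0.000635% in the pre-IP libraries. The 5 were COL1A1 (17 counts in p-UPF1 IP), COL3A1 and ALB (5 each in p-UPF1 IP), HBB (2 in p-UPF1 IP and 6 in pre-IP) and DES (1 in pre-IP). The HEK293 markers NEFH and PAX2 had 10 and 9 counts in p-UPF1 IP, fewer than COL1A1. HBA1, PTPRC, APOA1, DCN and KRT14 were among the 9 at 0.

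Of the 10 genes, DICER1 and DROSHA were higher in p-UPF1 IP and 0 were lower (edgeR quasi-likelihood F-test, Benjamini-Hochberg threshold 0.05 over 8070 genes). The background was 8.81% of tested genes higher and 10.9% lower, or 19.7% in either direction. DICER1 rose 2.66-fold and DROSHA 2.79-fold, while DGCR8, the Argonautes and the TNRC6 genes did not pass the test. The median log2 fold change of the 10 genes was 0.43, against 0.10 for all tested genes, and 9 of the 10 lay above that median, all but AGO1. That direction is not free of the filter on low counts, which asks for its minimum in 3 libraries of any group. AGO2, AGO3, AGO4, TNRC6C and DROSHA fell short of it in pre-IP replicate 4 (0 to 5 counts), and so passed through the p-UPF1 IP libraries. Among tested genes with transcripts at least as long as the shortest of the 10 (4514 nt), 16.1% were higher, so 2 of 10 is close to the share among genes of such length. The median log2 fold change of those genes was 0.50, higher than that of the 10. The p-UPF1 IP libraries all lay above the pre-IP libraries for 3 of the 10 genes (DICER1, DROSHA and TNRC6B) and all below for 0, against 21.9% and 17.7% of all tested genes and 33.4% above among those of at least 4514 nt.

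**Figure D1:**
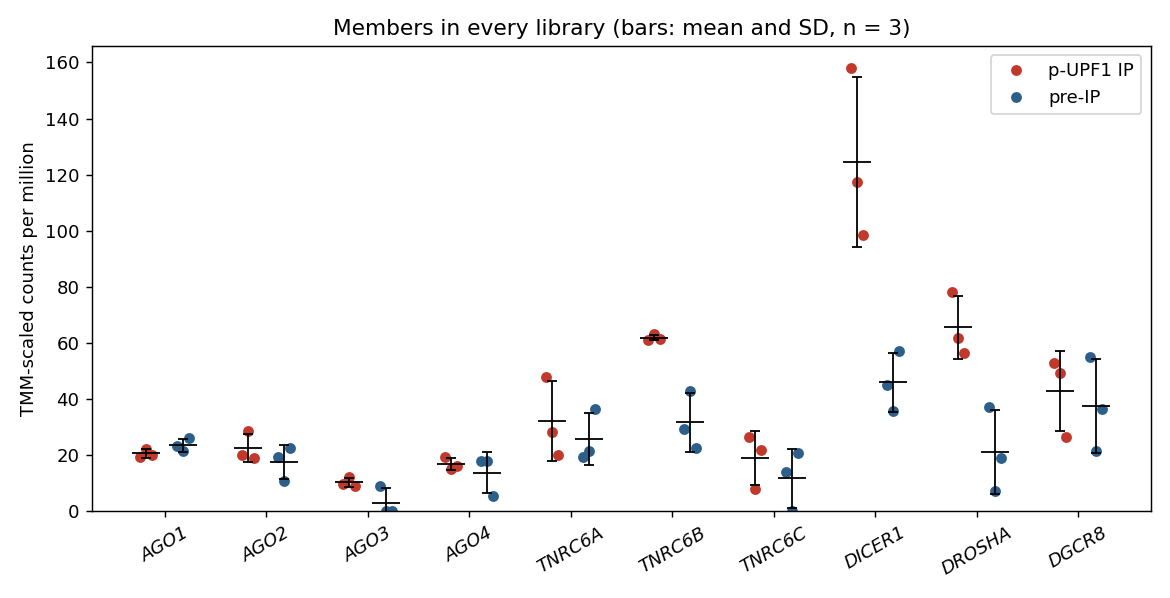
TMM-scaled CPM (y axis) of the 10 genes in the 3 p-UPF1 IP libraries (red, left of each pair) and the 3 pre-IP libraries (blue), with the mean and SD as bars. The groups are apart for DICER1, DROSHA and TNRC6B, and overlap for the other 7 genes.

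DICER1, the enzyme of the cytoplasmic step, was the most counted of the 10. It had 517, 322 and 176 counts in p-UPF1 IP replicates 3, 6 and 9, against 35, 10 and 33 counts in pre-IP replicates 1, 4 and 7. As CPM, the counts over the TMM-scaled size of the library in units of 1000000, these were 158, 117 and 98.4 CPM in p-UPF1 IP and 44.8, 35.8 and 57.0 CPM in pre-IP. Every p-UPF1 IP library lay above every pre-IP library. The means were 124 ± 30.4 CPM in p-UPF1 IP and 45.9 ± 10.7 CPM in pre-IP (SD, n = 3 each), a log2 fold change of 1.41 (SE 0.33, edgeR adjusted p = 0.00607). That call was lost without p-UPF1 IP replicate 3, the library with the highest level (1.19, edgeR adjusted p = 0.0615), and after a trend with transcript length was removed (0.58, edgeR adjusted p = 0.262).

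DROSHA, the nuclear RNase III enzyme, had 256, 170 and 101 counts in p-UPF1 IP replicates 3, 6 and 9, against 29, 2 and 11 counts in pre-IP replicates 1, 4 and 7. On the TMM scale these were 78.2, 61.9 and 56.5 CPM in p-UPF1 IP and 37.1, 7.16 and 19.0 CPM in pre-IP. The groups did not overlap, and the pre-IP libraries differed among themselves more than the p-UPF1 IP libraries, with the lowest value in the shallow replicate 4. The means were 65.5 ± 11.3 CPM in p-UPF1 IP and 21.1 ± 15.1 CPM in pre-IP (SD, n = 3 each), and the log2 fold change was 1.48 (SE 0.43, edgeR adjusted p = 0.0223). The call was lost when replicate 7 of pre-IP was left out (edgeR adjusted p = 0.0551) and likewise for p-UPF1 IP replicate 3 (0.121), 6 (0.0686) or 9 (0.0584), each with a log2 fold change from 1.34 to 1.60. It was also lost in limma-voom (adjusted p = 0.06) and after the transcript length trend was removed (0.96, edgeR adjusted p = 0.155).

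DGCR8, the RNA-binding subunit of Microprocessor, had 173, 135 and 47 counts in p-UPF1 IP replicates 3, 6 and 9, against 43, 6 and 21 in pre-IP replicates 1, 4 and 7. Its TMM-scaled levels were 52.8, 49.1 and 26.3 CPM in p-UPF1 IP and 55.0, 21.5 and 36.3 CPM in pre-IP. The highest library was a pre-IP one and the groups overlapped, with means of 42.8 ± 14.4 CPM in p-UPF1 IP and 37.6 ± 16.8 CPM in pre-IP (SD, n = 3 each). The log2 fold change of DGCR8 was 0.12 (SE 0.41, edgeR adjusted p = 0.869).

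Within this trio the ratios to DGCR8 did not overlap between the groups. For each DGCR8 count there were 1.49 DROSHA counts in p-UPF1 IP and 0.60 in pre-IP, with libraries pooled. The log2 ratio of DROSHA to DGCR8 within a library was 0.55, 0.33 and 1.07 in p-UPF1 IP and -0.55, -1.43 and -0.89 in pre-IP. Every p-UPF1 IP library had more DROSHA than DGCR8 and every pre-IP library less. The log2 ratio of DICER1 to DGCR8 was 1.56, 1.23 and 1.86 in p-UPF1 IP and -0.29, 0.70 and 0.63 in pre-IP, also without overlap. The log2 ratio of DICER1 to DROSHA overlapped, at 0.90 ± 0.11 in p-UPF1 IP and 1.31 ± 0.96 in pre-IP (SD, n = 3 each). Of 12 pairs of related genes compared in this way, 5 had groups apart, each with a two-sided exact permutation p of 0.1, the smallest that 3 against 3 allows, and a Benjamini-Hochberg value of 0.24 over the 12 pairs. No pair could therefore pass a threshold of 0.05. Among all pairs of tested genes 38.1% had groups apart in either direction, so 5 of 12 is close to the background. The 12 pairs share genes, and AGO1 with AGO3 and AGO3 with AGO4 were apart with AGO3 at 0 counts in pre-IP replicates 4 and 7.

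Of the TNRC6 genes, whose proteins are the scaffold between Argonautes and deadenylases, TNRC6B came nearest to a call. It had 200, 173 and 110 counts in p-UPF1 IP replicates 3, 6 and 9, against 23, 12 and 13 in pre-IP replicates 1, 4 and 7. The levels were 61.1, 63.0 and 61.5 CPM in p-UPF1 IP and 29.4, 43.0 and 22.5 CPM in pre-IP. The p-UPF1 IP libraries were nearly equal and all lay above the pre-IP libraries. The log2 fold change was 1.03 (SE 0.36, edgeR adjusted p = 0.0561), just outside the threshold, and it was inside in 6 of 18 alternatives, among them DESeq2 (adjusted p = 0.0402) and edgeR without pre-IP replicate 4 (0.0264). Over all alternatives the adjusted p ranged from 7.6e-05 with library totals alone to 0.942 with the transcript length trend removed.

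TNRC6A had 157, 77 and 36 counts in p-UPF1 IP replicates 3, 6 and 9, against 15, 6 and 21 in pre-IP replicates 1, 4 and 7. The levels overlapped, at 32.0 ± 14.3 CPM in p-UPF1 IP, against 25.7 ± 9.28 CPM in pre-IP (SD, n = 3 each, log2 fold change 0.32, SE 0.47, edgeR adjusted p = 0.678). TNRC6C had 87, 22 and 39 counts in p-UPF1 IP replicates 3, 6 and 9, against 11, 0 and 12 in pre-IP replicates 1, 4 and 7. For TNRC6C the lowest p-UPF1 IP library, replicate 6 at 8.01 CPM, lay below 2 pre-IP libraries, at 14.1 and 20.7 CPM. A count of 0 in pre-IP replicate 4 allows up to 10.7 CPM (3 counts), and the log2 fold change was 0.52 (SE 0.71, edgeR adjusted p = 0.648). The within-library ratios of the 3 TNRC6 genes to each other all overlapped between the groups.

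The Argonautes, which hold the guide strand, were the least counted family, with 81 to 178 counts per gene over the 3 p-UPF1 IP libraries and 7 to 39 over the 3 pre-IP libraries. AGO2, the Argonaute that cuts well-paired targets, had 66, 78 and 34 counts in p-UPF1 IP replicates 3, 6 and 9, against 15, 3 and 13 in pre-IP replicates 1, 4 and 7. Its levels were 22.5 ± 5.12 CPM in p-UPF1 IP and 17.5 ± 6.05 CPM in pre-IP (SD, n = 3 each, log2 fold change 0.30, SE 0.51, edgeR adjusted p = 0.718), and the groups overlapped. AGO1, which lacks strong slicing activity, had 63, 61 and 36 counts in p-UPF1 IP replicates 3, 6 and 9, against 18, 6 and 15 in pre-IP replicates 1, 4 and 7. The AGO1 levels were close, at 20.5 ± 1.52 CPM in p-UPF1 IP and 23.5 ± 2.25 CPM in pre-IP. AGO1 was the gene of the 10 with a log2 fold change below 0 (-0.20, SE 0.47, edgeR adjusted p = 0.798). With library totals alone it was 1.32 (edgeR adjusted p = 0.037), still below the median of tested genes under that scaling (1.63).

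AGO4 had 63, 41 and 29 counts in p-UPF1 IP replicates 3, 6 and 9, against 14, 5 and 3 in pre-IP replicates 1, 4 and 7. The AGO4 groups overlapped, at 16.8 ± 2.22 CPM in p-UPF1 IP and 13.7 ± 7.35 CPM in pre-IP (SD, n = 3 each, log2 fold change 0.33, SE 0.62, edgeR adjusted p = 0.753). AGO3 was the rarest, with 32, 33 and 16 counts in p-UPF1 IP replicates 3, 6 and 9, against 7, 0 and 0 in pre-IP replicates 1, 4 and 7. The AGO3 levels were 9.77, 12.0 and 8.95 CPM in p-UPF1 IP, against 8.96 CPM in pre-IP replicate 1 and 0 in the other two, where a count of 0 allows up to 10.7 CPM (replicate 4) and 5.18 CPM (replicate 7). The log2 fold change of AGO3 was 1.39 with a wide error (SE 0.92, edgeR adjusted p = 0.310), and it rests on the 7 counts of pre-IP replicate 1. Without that library the remaining pre-IP libraries held 0 counts, and AGO3 passed the test (edgeR adjusted p = 0.0403). That setting drops the only pre-IP library with AGO3 counts, whose level was close to that of p-UPF1 IP replicate 9. No conclusion is drawn from it. No lower bound on the fold is given, as the 10.7 CPM allowed in replicate 4 lies among the p-UPF1 IP levels. At this depth a change of AGO3 could not be told from none with all libraries in.

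**Figure D2:**
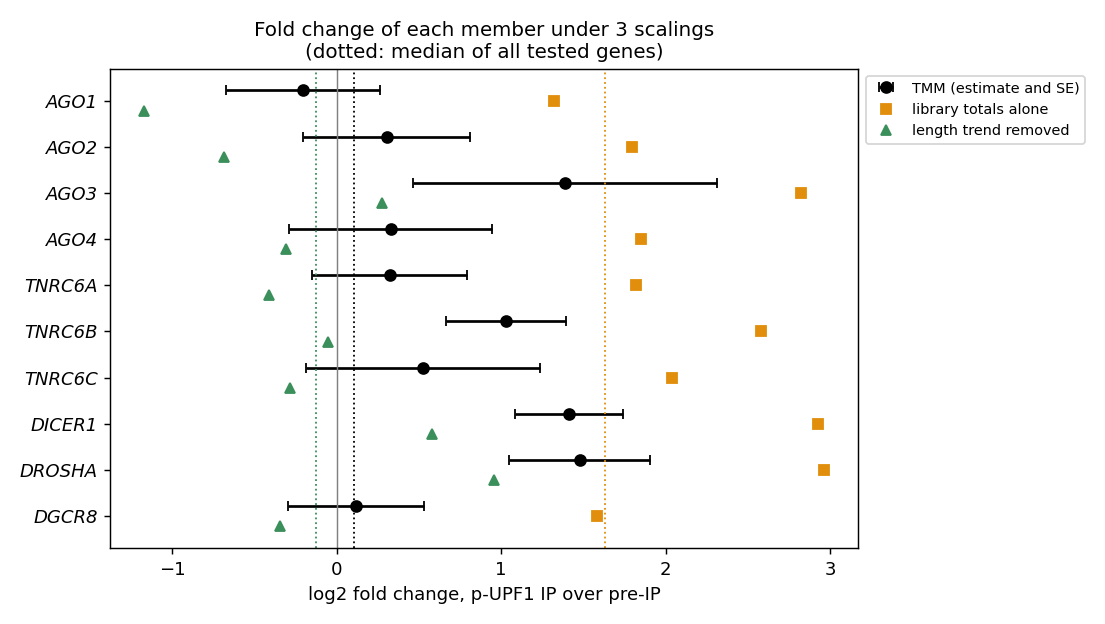
Log2 fold change of each gene, p-UPF1 IP over pre-IP (x axis), with TMM scaling (black, with SE), with library totals alone (orange) and with the trend with transcript length removed (green). Dotted lines are the median of all tested genes under each setting, at 0.10, 1.63 and -0.13. DICER1, DROSHA, AGO3 and TNRC6B lie to the right of that line under all 3.

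Scaling moved the whole set together. With library totals alone all 10 genes were higher in p-UPF1 IP (10 of 10 called by edgeR), with a median log2 fold change of 1.95, but so were 60.4% of all tested genes, whose median was 1.63. As a share of all counts the 10 genes together took 0.0784%, 0.0604% and 0.0689% in p-UPF1 IP replicates 3, 6 and 9, against 0.0178%, 0.00833% and 0.0150% in pre-IP replicates 1, 4 and 7. The share was thus larger in every p-UPF1 IP library. DICER1, DROSHA and DGCR8 held more than the other 7 genes together in each p-UPF1 IP library, with 946 of 1614, 627 of 1112 and 324 of 624 counts. In pre-IP they had 107 of 210 counts in replicate 1, 18 of 50 in replicate 4 and 65 of 142 in replicate 7, so they held more than the other 7 in replicate 1 alone.

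Divided by transcript length, the 3 processing genes stood above the other 7 in p-UPF1 IP, while TNRC6C lay among the Argonautes. In p-UPF1 IP DROSHA had 12.4 ± 2.13, DICER1 12.0 ± 2.94 and DGCR8 9.47 ± 3.19 CPM per kilobase (SD, n = 3 each). DROSHA overlapped with DICER1, and DICER1 with DGCR8. These 3 were followed by TNRC6A (3.80 ± 1.70) and TNRC6B (3.45 ± 0.055), then AGO4 (2.36 ± 0.311), TNRC6C (1.93 ± 0.99), AGO2 (1.54 ± 0.351) and AGO1 (1.5 ± 0.11), and last AGO3 (0.52 ± 0.081 CPM per kilobase). Neighbours were apart between DGCR8 and TNRC6A, between TNRC6B and AGO4, and between AGO1 and AGO3. The gap of DGCR8 to TNRC6A was narrow, from 5.82 in the lowest DGCR8 library to 5.68 CPM per kilobase in the highest TNRC6A library. In pre-IP DGCR8 led with 8.33 ± 3.72 CPM per kilobase, ahead of DICER1 (4.44 ± 1.03), DROSHA (3.98 ± 2.84) and TNRC6A (3.04 ± 1.10). AGO3 was again last at 0.152 ± 0.263 CPM per kilobase, and the pre-IP neighbours were apart between AGO1 and AGO2 alone. The transcript isoforms used in HEK293T cells were not measured here, so a level per kilobase depends on the annotated length.

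The 10 transcripts are long. The principal GENCODE transcripts run from 4514 nt for DGCR8 and 5305 nt for DROSHA to 17933 nt for TNRC6B and 19687 nt for AGO3, with a median of 10040 nt, against 3604 nt for the tested genes. With tested genes divided by transcript length into 4 bins of 1867, the share called higher was 2.62% up to 2292 nt, 6.27% up to 3604 nt, 9.86% up to 5415 nt and 17.9% above that. Across 7468 tested genes log2 fold change correlated with log2 coding length at Pearson r = 0.444, with log2 transcript length at 0.346 and with log2 3' UTR length at 0.099, as a description of genes that share the same 6 libraries. The longest of the 10, AGO3 and TNRC6B, had log2 fold changes of 1.39 and 1.03 and were not called. AGO3 had an SE of 0.92 on 7 counts in pre-IP, and TNRC6B an edgeR adjusted p of 0.0561. The 3' UTRs of the genes not called have 10921 nt (AGO1), 11888 nt (AGO2), 16755 nt (AGO3) and 4285 nt (AGO4). They have 2420 nt in TNRC6A, 12567 nt in TNRC6B, 3990 nt in TNRC6C and 1763 nt in DGCR8. Of the called genes, DROSHA has the shortest of the 10 at 935 nt, and DICER1 has 4270 nt. The coding sequence has 4125 nt in DROSHA and 5769 nt in DICER1, and 5889 nt in TNRC6A, which was not called. Whether length is a cause of any of these calls was not tested. After a trend with coding length was removed, the log2 fold changes were 0.23 for DICER1 (edgeR adjusted p = 0.694) and 0.53 for DROSHA (edgeR adjusted p = 0.460).

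**Figure D3:**
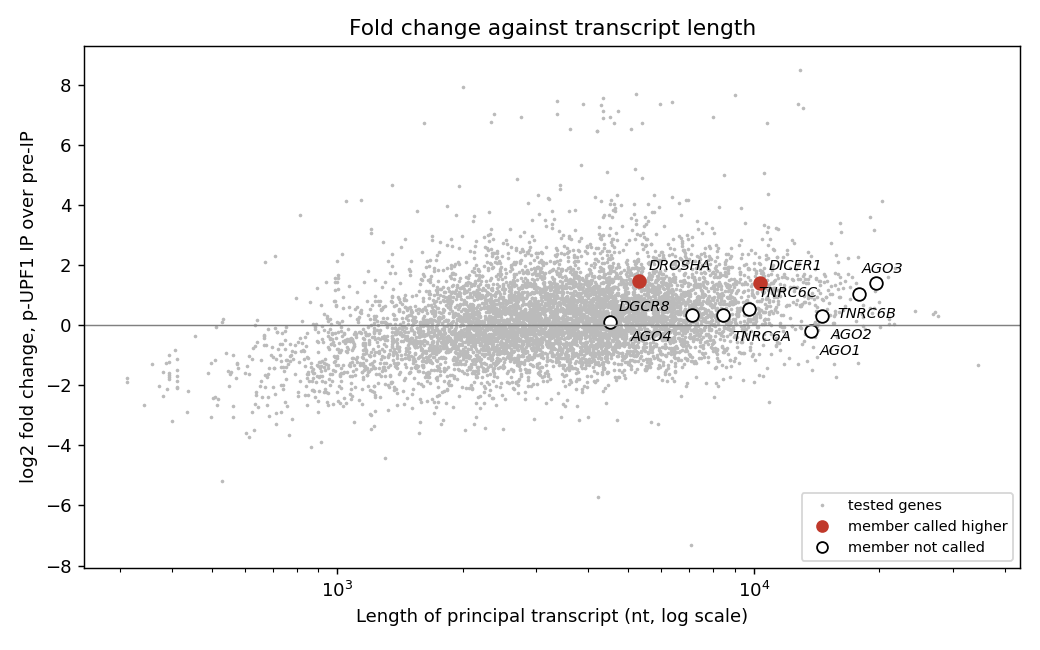
Log2 fold change, p-UPF1 IP over pre-IP (y axis), against the length of the principal transcript (x axis, log scale) for tested genes with a length (grey), with the 10 genes as circles, filled where called higher. DROSHA at 5305 nt and DICER1 at 10331 nt are filled, while AGO1, AGO2, AGO3 and TNRC6B lie further right and are open.

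Other features by which an mRNA can become a target of nonsense-mediated decay are an exon junction well past the stop codon and translation of an upstream reading frame. None of the 10 principal transcripts has an exon junction more than 50 nt past the stop codon, as holds for all but 0.174% of the tested genes. GENCODE sets transcripts with such a junction apart under their own type, so that share is low by construction. It lists 1 such transcript each for AGO1, AGO2 and AGO3, 2 for TNRC6A and 0 for the other 6 genes, DICER1 and DROSHA among them, and counts per gene do not separate transcripts. Upstream ATG triplets, counted on the mRNA strand of the 5' UTR in any frame, numbered 8 in DICER1, 6 in DGCR8 and 5 in DROSHA, and 0 to 3 in the other 7. Of tested genes 9.43% have 5 or more, and the correlation of log2 upstream ATG number with log2 fold change across those genes was r = 0.052. DGCR8, with 6 such triplets, was not called, and whether these triplets bear on the calls was not tested.

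The tested genes whose levels lay nearest to DICER1 over the 6 libraries were TOPBP1, KDM2A, PPP4R3A, RNF213 and DIAPH1, with a root mean square difference of 0.227 to 0.275 in log2 CPM. All 5 were called higher (edgeR, log2 fold changes from 1.04 for PPP4R3A to 1.62 for RNF213), which nearness to DICER1 in each library brings with it.

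Genes that work beside these 10 were called in both directions, at shares close to the background. Of 65 tested genes in 4 lists, 5 were higher and 5 lower (edgeR, background 8.81% and 10.9%), with a median log2 fold change of 0.22, against 0.10 for all tested genes. Of 16 Microprocessor cofactors tested, 0 rose and 3 fell (median log2 fold change 0.07). These were ERH, a small protein that binds DGCR8 (-2.48, SE 0.34, edgeR adjusted p = 0.000112), the splicing factor SRSF3 (-1.09, edgeR adjusted p = 0.0131) and the RNA helicase DDX17 (-1.05, edgeR adjusted p = 0.0435). With library totals alone ERH stayed negative (-0.96), while SRSF3 (0.47) and DDX17 (0.54) turned positive. All of these lay below the median of tested genes under that scaling (1.63). DDX17 lost its call without each library in turn (highest edgeR adjusted p = 0.146), and SRSF3 without p-UPF1 IP replicate 3 (0.0821).

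Of 10 export and pre-microRNA cofactors tested, 0 were called in either direction, with a median log2 fold change of 0.76. The most counted, RAN, the GTPase that powers the export of hairpins by XPO5, had 198 ± 18.7 CPM in p-UPF1 IP and 332 ± 43.9 CPM in pre-IP (SD, n = 3 each, edgeR adjusted p = 0.078). With library totals alone RAN was called higher (log2 fold change 0.81, edgeR adjusted p = 0.0458), yet lay below the median of tested genes (1.63). With the transcript length trend removed RAN was called lower (-0.94, edgeR adjusted p = 0.0247). XPO5 itself had a log2 fold change of 0.83 (edgeR adjusted p = 0.0609). TARBP2 and PRKRA, the double-stranded RNA-binding partners of DICER1, had 0.96 and -0.90 (edgeR adjusted p = 0.476 and 0.144). LIN28B, which blocks the processing of let-7 precursors, had 0.55, and LIN28A and ZC3H12A were not tested.

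Of 19 Argonaute loading and partner genes tested, 4 rose and 1 fell (background 8.81% and 10.9%, median log2 fold change 0.22), and TRIM71 was not tested. The chaperone HSP90AA1, which helps load small RNA into Argonautes, had 848 ± 191 CPM in p-UPF1 IP and 252 ± 99.4 CPM in pre-IP (SD, n = 3 each, log2 fold change 1.74, edgeR adjusted p = 0.00397). Its cochaperone AHSA1 moved the other way (-1.63, edgeR adjusted p = 0.00264). With library totals alone that change was near 0 (-0.05), where the median of tested genes was 1.63. ZSWIM8, a ubiquitin ligase substrate receptor that targets Argonautes for decay, rose by 2.26 on the log2 scale on 10 counts in pre-IP (edgeR adjusted p = 0.0206), and TSNAX, a subunit of the C3PO nuclease, by 1.39 (0.0194). FMR1, an RNA-binding protein named after its value was seen, rose by 1.11 (edgeR adjusted p = 0.0345). HSPA8, the most counted, had a log2 fold change of 0.47 (edgeR adjusted p = 0.483). The calls of ZSWIM8, TSNAX and FMR1 were lost when replicate 1 of pre-IP or replicate 3 or 9 of p-UPF1 IP was left out, those of ZSWIM8 and FMR1 also without replicate 6 of p-UPF1 IP, and that of FMR1 also without replicate 7 of pre-IP (highest edgeR adjusted p = 0.104, 0.113 and 0.154). All 3 calls were also lost with the transcript length trend removed (edgeR adjusted p = 0.0984 for ZSWIM8, 0.0557 for TSNAX and 0.225 for FMR1).

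Of 20 effectors that TNRC6 proteins recruit or that act after them, 1 rose and 1 fell (background 8.81% and 10.9%, median log2 fold change 0.41). XRN1, the exonuclease that degrades decapped mRNA from the 5' end, rose by 1.79 (edgeR adjusted p = 0.0477), with a sum of 369 counts in p-UPF1 IP, against 25 in pre-IP, a call lost without any library but pre-IP replicate 1 (highest edgeR adjusted p = 0.142) and with the transcript length trend removed (0.97, edgeR adjusted p = 0.321). CNOT7, a catalytic deadenylase of the CCR4-NOT complex, fell by 1.92 (edgeR adjusted p = 0.00493), with 12.8, 12.0 and 11.2 CPM in p-UPF1 IP and 39.7, 46.6 and 51.8 CPM in pre-IP. CNOT1, the scaffold of that complex and the most counted of the list, had a log2 fold change of 0.79 (edgeR adjusted p = 0.106). With library totals alone the CNOT7 change was -0.39 and no longer passed the test (edgeR adjusted p = 0.519). The median of tested genes under that scaling was 1.63.

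**Figure D4:**
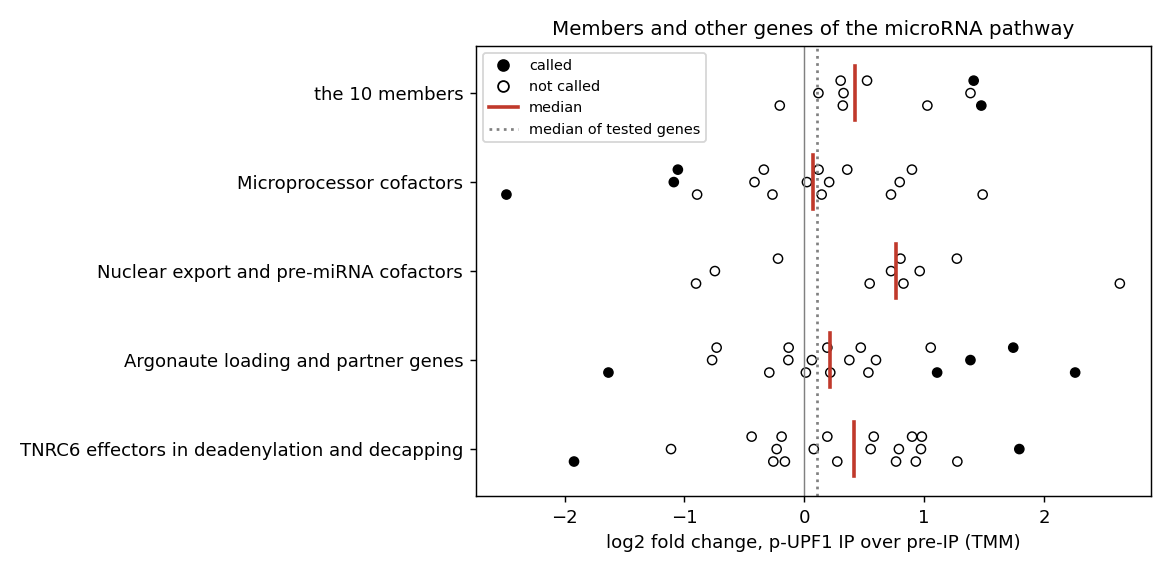
Log2 fold change, p-UPF1 IP over pre-IP with TMM (x axis), of the 10 genes and of the tested genes in 4 lists of the microRNA pathway (rows), filled where called, with the median of each row in red. The cofactors of export and pre-microRNA processing have no filled point, and the other rows have called genes.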

How the data were processed

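The authors deposited 1 table of raw counts of reads per gene symbol, with a column per library. Per the submitters' processing notes, reads were handled with STAR 2.5.2b, cutadapt 1.15 and featureCounts (Subread 1.5.0p3) on hg19. Annotation, strand setting and multi-match rule: not given in the sources used here. Therefore reads of overlapping or antisense genes cannot be told apart. TNRC6C-AS1 and DICER1-AS1, which lie over 1438 and 80 exon bases of their partners, had 1 count each, and MIR4766 had 0. Other genes on the opposite strand lie over 1386 exon bases of TNRC6A, 1051 of DGCR8, 492 of AGO3 and 396 of AGO1. The counts of those genes were not examined. Per the labels' protocols, RNA was ligated to adapters and amplified over 20 PCR cycles, without stated molecular identifiers, so floors cover counting error only.

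Tests on the counts used edgeR 4.0.16 under R 4.3.3 (quasi-likelihood F-test by the earlier, legacy method, filterByExpr with a minimum count of 10, TMM, Benjamini-Hochberg 0.05 over all tested genes), and the scripts were tested on simulated data. The SE is the log2 fold change divided by the square root of F. CPM are TMM-scaled, and ratios used log2 CPM with a prior count of 2. Alternatives were RLE scaling, library totals, other filters, DESeq2 1.42.0, limma-voom 3.58.1, gene classes left out and each library left out. The newer edgeR method, removal of a length trend (loess) and a replicate block were chosen after seeing the data. Transcript features came from GENCODE release 29, on GRCh38, a later build, so no coordinates are given. It gave a coding transcript for 92.5% of tested genes. The named genes were the 10, the most counted and up to 4 called genes of each list, and the 5 nearest to the most counted of the 10. XPO5, TARBP2, PRKRA, LIN28B and FMR1 were named in addition. The 10 genes and the lists were chosen with earlier results of these data known.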

Additional observations from a re-analysis of the deposited data

How the results depend on the processing

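DICER1 and DROSHA had positive log2 fold changes under all 18 alternatives, and DICER1 was called in 15 of them and DROSHA in 11. The count of the 10 genes called higher, 2 in the main analysis, was 10 with library totals alone, 1 with limma-voom and 0 with the trend with transcript length or with coding length removed, and 0 to 3 with a library left out. The count called lower was 0 throughout. Over all tested genes 711 were higher and 880 lower. The counts were 4874 and 156 with library totals alone, 1101 higher without a filter on low counts, 259 higher with the transcript length trend removed, 221 and 455 with the coding length trend removed, and 273 to 795 higher and 518 to 833 lower with a library left out. For the 65 pathway genes, 5 higher and 5 lower, they were 52 and 1 with library totals alone, 9 and 3 without a filter, 1 higher with the transcript length trend removed, 2 higher with the coding length trend removed, and 1 to 7 higher and 3 to 5 lower with a library left out.

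Log2 fold changes turned sign for 7 of the 8 genes not called in the main analysis, all but AGO3. With library totals alone AGO1 was at 1.32, below the median of tested genes (1.63). With the transcript length trend removed that median was -0.13. AGO2 was then at -0.69, AGO4 at -0.31, TNRC6A at -0.41, TNRC6B at -0.054, TNRC6C at -0.28 and DGCR8 at -0.34. With the coding length trend removed the median was -0.15, and they were at -0.34, -0.32, -0.87, -0.080, -0.59 and -0.46 in the same order. TNRC6B lay above the median under both length settings, and the others of these genes below it. DGCR8 was at -0.0016 with limma-voom, and leaving out a library gave ranges of -0.060 to 0.51 for DGCR8, -0.062 to 0.75 for AGO4 and -0.11 to 0.72 for TNRC6A. The length settings change the offset and keep 7468 genes, and the cause of the other moves was not tested. The groups share no replicate number. A replicate block on sets of consecutive label numbers (1 and 3, 4 and 6, 7 and 9), which the labels do not state, was added after seeing the data. With that block DICER1 (1.42, edgeR adjusted p = 0.00163) and DROSHA (1.63, 0.00531) were the genes of the 10 called, 780 tested genes were higher and 876 lower, and 8 pathway genes were higher and 5 lower. Deviations from the group means correlated at 0.092, 0.172 and 0.102 across genes within the sets and at -0.118 to 0.027 between them, and each library correlated best with its own set, a hint from the data and not from the design. As each group was centred on its own mean, positive values within the sets force negative ones on average between them, so that contrast is in part built in. The pre-IP counts of these genes, from 7 to 78 over 3 libraries, limit what could be detected.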
